A study of Caenorhabditis elegans with 2 samples.

Results

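The translocase of the outer mitochondrial membrane (TOM complex) is represented here by 5 nuclear genes of Caenorhabditis elegans, tomm-7, tomm-20, tomm-22, tomm-40 and tomm-70. They were taken by name from a list of TOM genes, and all 5 were found in the Ensembl annotation among 19973 nuclear protein-coding genes. The study mapped ISW-1, the ATPase of the ISWI family of nucleosome remodellers, by ChIP-seq with an antibody to GFP (the antibody field itself reads isw-1). All animals were of strain OP181, which carries wgIs181, an integrated isw-1::TY1 EGFP 3xFLAG transgene with unc-119(+), in the unc-119(ed3) background. Whole L1 larvae, starved after bleaching and given an age of 6 hours, were used as 2 biological replicates of this 1 condition. The labels point to a possible control experiment, not analysed here, and do not say whether the native isw-1 gene was intact. Whole larvae mix all tissues, so occupancy in a few cells and weaker occupancy in many cannot be told apart.

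Nearly all mitochondrial proteins are made in the cytosol and enter the organelle through the TOM complex. In yeast and human cells TOM40 forms the channel, TOM20 and TOM70 are receptors for incoming precursors, TOM22 links receptors to the channel and is itself a receptor, and TOM7 is a small subunit that tunes assembly of the complex. From there, precursors pass to the TIM complexes of the inner membrane or to the sorting and assembly machinery of the outer membrane. ISWI enzymes slide and space nucleosomes, and ISW-1 has been linked in C. elegans to the mitochondrial unfolded protein response, whose markers include the chaperone genes hsp-6 and hsp-60.

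tomm-20 alone of the 5 TOM genes had an ISW-1 peak at its promoter in every deposited list. A peak upstream of tomm-7 passed the reproducibility threshold in 2 of 4 thresholded lists, but lay nearer to the starts of 2 other genes. tomm-22, tomm-40 and tomm-70 had no thresholded peak in the window of any list, and the peaks that ranked lists gave there failed the threshold. A gene was counted when a peak summit, the single position the authors give within each peak, fell in its promoter window, which reached 1000 bp upstream and 500 bp downstream of the annotated start. The threshold is an irreproducible discovery rate (IDR) of at most 0.01, and the signal of a peak is the authors' own value, compared only within a list. The series has a conservative and another thresholded list made from both replicates, each replicate has its own, and each of these 4 has a longer ranked list with no threshold.

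The sequences under the thresholded peaks are shown first, because they are the DNA on which the calls rest. The tomm-20 sequence is the whole peak of the conservative list, chrV:12343638-12343858 (ce11, minus strand, 221 bases), which is intergenic. The coq-5/ufm-1 sequence is the stretch within 100 bases of the summit that was counted for tomm-7, chrIII:7858590-7858790 (ce11, plus strand, 201 bases), also intergenic. Capitals mark CG pairs, a feature chosen after the sequences were seen.
tomm-20: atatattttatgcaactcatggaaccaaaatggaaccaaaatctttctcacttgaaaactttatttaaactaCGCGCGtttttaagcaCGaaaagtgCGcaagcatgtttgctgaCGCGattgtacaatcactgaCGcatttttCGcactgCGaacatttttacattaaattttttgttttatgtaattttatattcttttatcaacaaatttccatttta
coq-5/ufm-1: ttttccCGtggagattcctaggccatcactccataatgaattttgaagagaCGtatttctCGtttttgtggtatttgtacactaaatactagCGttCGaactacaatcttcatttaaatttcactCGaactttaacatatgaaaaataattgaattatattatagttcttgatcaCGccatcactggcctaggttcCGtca

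All 10 CG pairs of the tomm-20 peak fell within 81 bases, from position 73 to position 153 of the printed sequence, and the summit is at position 111. GC content was 49.4% in that stretch and 30.8% in the whole peak. The stretch was cut to run from the first to the last CG pair, so part of this difference follows from its choice. No other peak was cut in this way for comparison. The 11-base word ATGGAACCAAA stands in direct tandem in the upstream part, at positions 19 and 30. Within 100 bp of the summit, GC content was 32.8% at tomm-20 and 34.8% at the tomm-7 peak. Of the 1418 conservative summits that lay in a promoter window, the median was 41.3% (quartiles 36.8 and 47.3%), and 7.90% had a lower value than tomm-20. The counts of CG pairs, 10 and 8, stood against a median of 11 (quartiles 9 and 14) over those summits.

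The 4 words TGCGTCTC, GAGAGAGA, GCGCGAAA and GGGCGG were searched on both strands. None of them lay within 100 bp of the tomm-20 summit. At least 1 of the 4 words was present within 100 bp of 432 of the 1418 promoter summits (30.5%), and TGCGTCTC alone at 13.5%. In the full promoter windows of the 5 genes the only match was a GAGAGAGA in tomm-40, at chrII:8973341-8973348, 222 bp downstream of the start in a coding exon. GAGAGAGA was present in 9.68% of promoter windows of all protein-coding genes, and any of the 4 words in 37.4%. Within 100 bp of the 1418 promoter summits, GAGAGAGA was present at 7.40%. The match is shown because it lies under the single ranked peak that replicate 2 has in the tomm-40 window. That peak failed the threshold (IDR 0.746), and replicate 1 had none in the window. The word, here on its complementary strand, is in capitals (chrII:8973321-8973368, minus strand, ce11).
tomm-40: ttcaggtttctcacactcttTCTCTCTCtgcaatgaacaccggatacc

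tomm-20 (WBGene00009092, chrV:12342314-12343469, minus strand, 3 exons) encodes the import receptor that in other species recognises presequences. Its peak had a signal of 532.5 in both series lists, where it ranked 228 of 2143 in the conservative list and 228 of 2210 in the other. Replicate 1 gave a signal of 354.9 (rank 202 of 2090) and replicate 2 a signal of 173.7 (rank 305 of 1756). The peak stood high in each thresholded list, at percentile 89.4 in the conservative list, 90.3 in replicate 1 and 82.6 in replicate 2, where the percentile is the share of peaks in that list with a lower signal. In the ranked lists of both replicates, which are far longer, the percentiles were 98.9 and 99.0. Global IDR was 1e-05, the lowest value in the files, in every list.

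The tomm-20 summit was 279 bp upstream of the start in the series lists and in replicate 1, and 260 bp upstream in replicate 2. The replicates' summits were thus 19 bp apart, and their intervals overlapped by 143 bp, which is the whole width of the replicate 2 peak. No other gene of any type had this summit in its window. The upstream neighbour snb-2, a synaptobrevin-family gene on the same strand, ends 718 bp away, and F23H12.3, on the opposite strand, starts 1397 bp from the summit. The peak was 221 bp wide in the conservative list. In that list 1184 peaks (55.2%) had the commonest width, 376 bp, and each of these had its summit exactly in the middle. Peaks narrower than that, like the one at tomm-20, numbered 937 and had a median signal of 344.5, against 136.0 for those of 376 bp.

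Genes closest to tomm-20 in signal percentile over the conservative list and both replicates were efl-1, an E2F-family transcription factor gene, and fbxa-90, an F-box gene, both on chromosome V. For each, the absolute differences summed to 0.246 percentile points over these 3 lists, among 1554 genes that had a summit in all 3. efl-1 and fbxa-90 had identical percentiles to each other (89.3, 90.2 and 82.7). Equal values in all 3 lists arise where a single summit counts for both genes, so these may be the same peak rather than separate ones.

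tomm-7 (WBGene00022783, chrIII:7859613-7860159, plus strand, 2 exons) encodes the small regulatory subunit. The peak counted for it had a signal of 98.96 in the series lists. It passed in the other thresholded list (rank 1984 of 2210, global IDR 0.00648), and failed in the conservative one, whose ranked list gives it a global IDR of 0.543. Replicate 1 had it in its thresholded list with a signal of 77.5 (rank 1708 of 2090, IDR 0.00268). Replicate 2 had it only in the ranked list, with a signal of 21.4 (rank 7938 of 31134, IDR 0.579). Replicate 1 and the other series list thus had the peak past the threshold, and replicate 2 and the conservative list did not. In position the replicates were close, with summits 5 bp apart.

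Peaks with a lower signal than that of tomm-7 passed in the conservative list, and peaks with a higher one failed. Of the 2143 peaks that passed there, 190 (8.87%) had a lower signal. Of the 2120 peaks of the ranked list with a higher signal, 158 (7.45%) also failed. Across all protein-coding genes, 162 had a summit in the other thresholded list and none in the conservative list. Of these 162, 106 were in the list of replicate 1 but not of replicate 2, like tomm-7, and 24 the other way round.

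The summit that counts for tomm-7 stood between a pair of divergent genes. It was 233 bp upstream of coq-5, which encodes a methyltransferase of ubiquinone synthesis, 289 bp upstream of ufm-1, which encodes a ubiquitin-like modifier, and 923 bp upstream of tomm-7. ufm-1 lies between the summit and tomm-7 on the same strand, and its end is 100 bp from the tomm-7 start. Genes so closely spaced on a strand are often co-transcribed as operons in C. elegans, and trans-splicing can place the annotated start of a downstream gene far from the promoter. Operon annotation was not used here, so whether coq-5, ufm-1 or tomm-7 is served by the site was not tested. With the summit counted only for the nearest start, it would count for coq-5. The peak had the commonest width in each list (376, 360 and 290 bp in the series, replicate 1 and replicate 2 lists), so its summit is the middle of a fixed interval. A non-coding gene, ZK652.14, overlaps the tomm-7 start on the opposite strand, and the summit was not in its window.

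**Figure D1:**
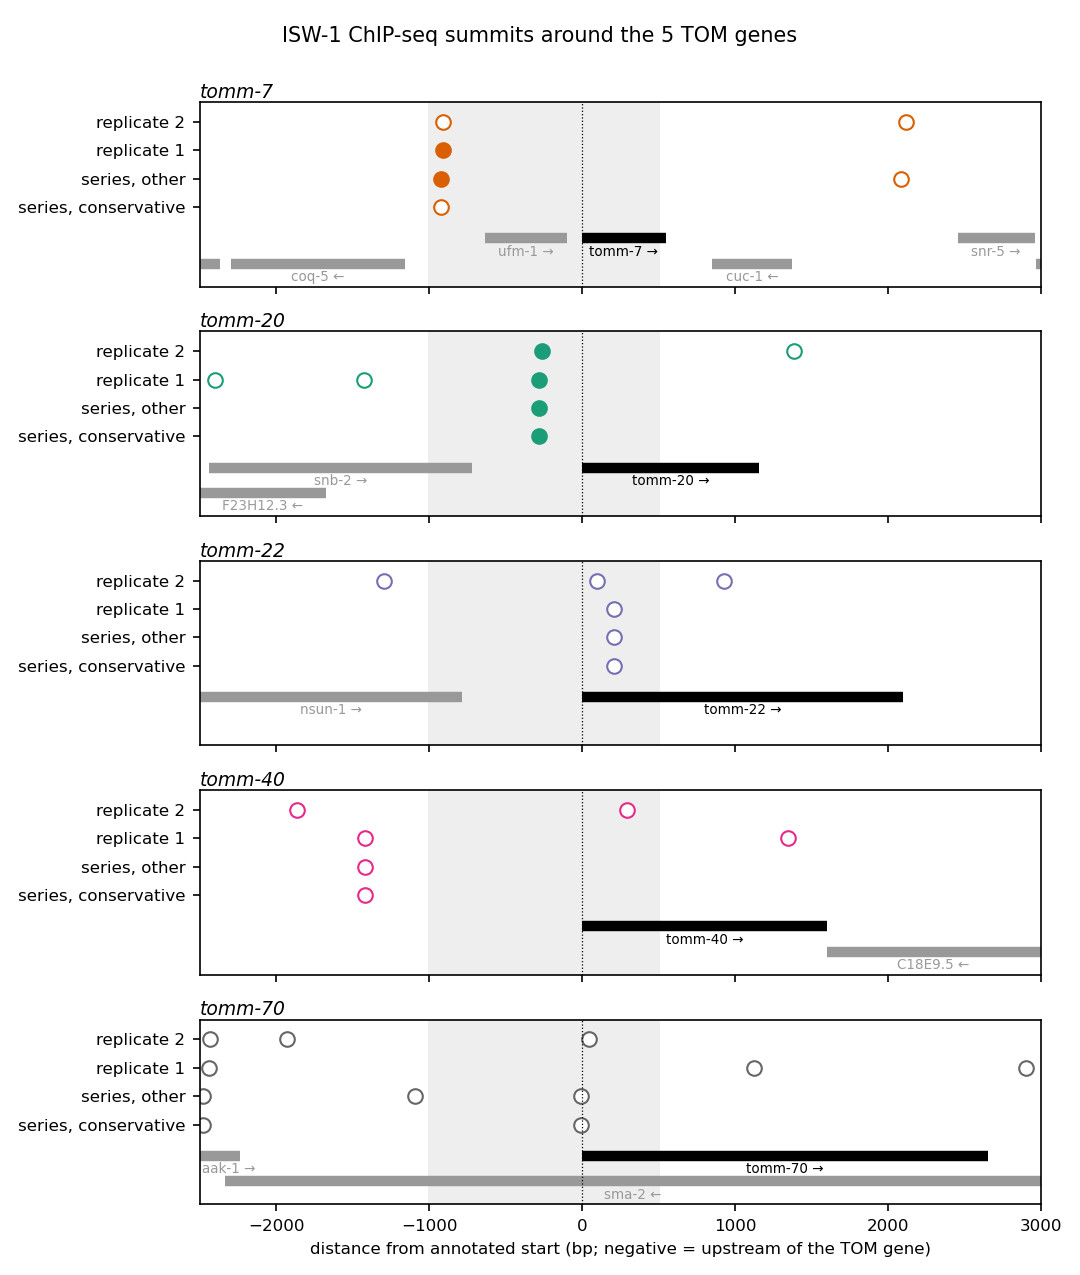
Summit positions around the 5 TOM genes, as distance in bp from the annotated start in the direction of the gene. Each row of circles is a ranked list, filled circles also passed the threshold, the grey band is the promoter window, and bars are protein-coding genes with arrows for their direction relative to the TOM gene. Filled circles stand 279 or 260 bp upstream of tomm-20 in all 4 rows and 923 or 908 bp upstream of tomm-7 in 2 rows, beyond ufm-1.

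tomm-70 (WBGene00022722, chrIII:8752095-8754750, minus strand, 10 exons) encodes the receptor that in yeast and human cells takes precursors from cytosolic chaperones. No thresholded list had a peak in its window. A ranked peak with signal 46.2 had its summit 7 bp upstream of the start in both series lists (ranks 6784 of 11648 and 6756 of 11169, global IDR 0.604 and 0.381). Replicate 2 had a ranked peak of 25.9 with its summit 43 bp downstream, in the coding sequence (rank 4303 of 31134, IDR 0.857), and replicate 1 had none in the window. So the replicates differed in whether a peak was listed at all, although the replicate 2 peak stood at percentile 86.2 of its list. tomm-70 lies within sma-2, a Smad gene of TGF-beta signalling on the opposite strand. A shorter sma-2 transcript starts 135 bp from the series summit, which lies upstream of it as well. The closest thresholded peak lay 13084 to 13103 bp downstream in the 4 lists, in the promoter window of pdhk-2, which encodes a pyruvate dehydrogenase kinase (conservative signal 605.8).

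tomm-22 (WBGene00021133, chrII:468374-470475, minus strand) encodes the central receptor. Its window held a peak in all 4 ranked lists and in no thresholded one. The series lists had it at a signal of 49.9, 206 bp downstream of the start in an intron (global IDR 0.787 and 0.776). Replicate 1 had a signal of 28.9 at 210 bp downstream (IDR 0.332), and replicate 2 a signal of 12.8 at 99 bp downstream, in a coding exon (IDR 0.928, the highest in that list). Replicate summits were 111 bp apart here, against 19 bp at tomm-20 and 5 bp at tomm-7, and the percentiles were 51.2 and 14.5. The closest conservative summit was 5732 bp upstream, in the 5' UTR of W07E6.5. It lay in the promoter window of nsun-1, which encodes an RNA methyltransferase.

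tomm-40 (WBGene00007686, chrII:8971965-8973566, minus strand, 7 exons) encodes the channel. Of the 8 lists, only the ranked list of replicate 2 had a summit in its window, with a signal of 20.1 at 294 bp downstream in an intron (IDR 0.746). Just beyond the window, 1418 bp upstream, the series ranked lists had an intergenic peak of 49.7 (IDR 0.787 and 0.776), which replicate 1 had at 1423 bp with a signal of 32.7 and an IDR of 0.0656. In replicate 2 the closest upstream peak was at 1868 bp (signal 17.9). The closest conservative summit lay 4095 bp downstream of the tomm-40 start, at signal 481.9, in the divergent promoter of szy-20 and C18E9.5. C18E9.5 overlaps the far end of tomm-40 on the opposite strand.

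By signal, tomm-20 came first in each replicate. In the ranked list of replicate 1 it was followed by tomm-7 and tomm-22, with tomm-40 and tomm-70 not listed, and in that of replicate 2 by tomm-70, tomm-7, tomm-40 and tomm-22. The order below tomm-20 was therefore not the same in the replicates. Each replicate has 1 value per gene, so neighbours in the order have no error of their own. The ranked lists start at a signal of 20.1 in replicate 1 and 10.9 in replicate 2. A gene without a listed peak has no value there, which is not the same as a signal of 0.

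**Figure D2:**
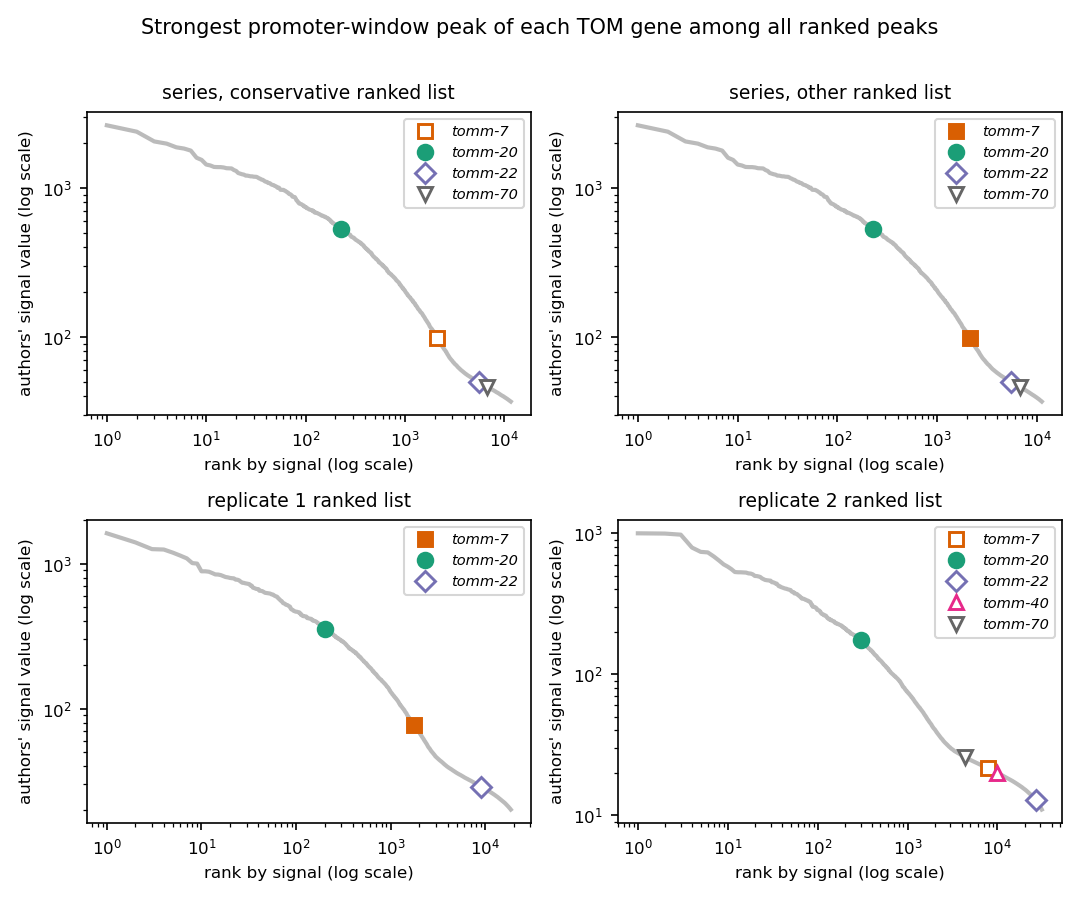
Signal against rank (both on log scales) for all peaks of the 4 ranked lists (grey line), with the strongest promoter-window peak of each TOM gene as a symbol, filled where the peak passed the threshold. tomm-20 sits at ranks 203 to 307, and tomm-22 and tomm-70 sit between ranks 4303 and 26606 where they are listed.

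The counts of TOM genes are set here against all genes. In the conservative list 1 of 5 had a summit in the window, against 1997 of 19973 protein-coding genes (10%). In the other thresholded list it was 2 of 5 against 10.2%, in replicate 1 it was 2 of 5 against 9.82%, and in replicate 2 it was 1 of 5 against 8.6%. One gene more or fewer moves the share of the TOM genes by 20 percentage points, and the difference from the background was not tested. Without a threshold the counts were 4 of 5 in the ranked list of the conservative set (24.5% of all genes), 4 of 5 in that of the other set (24%), 3 of 5 in replicate 1 (32.3%) and 5 of 5 in replicate 2 (44.9%). Among window peaks that failed the threshold, the lowest global IDR was 0.332, at tomm-22 in replicate 1.

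How common each pattern was over the genome differed between the members. Like tomm-20, 1550 protein-coding genes (7.76%) had a summit in all 8 lists. The combination seen at tomm-7 was shared by 98 genes (0.491%), that of tomm-22 (all ranked lists, no thresholded one) by 1405 (7.03%), and that of tomm-70 by 271 (1.36%). A summit in the ranked list of replicate 2 alone, as at tomm-40, was found at 3777 genes (18.9%). Each of these counts includes the member itself.

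**Figure D3:**
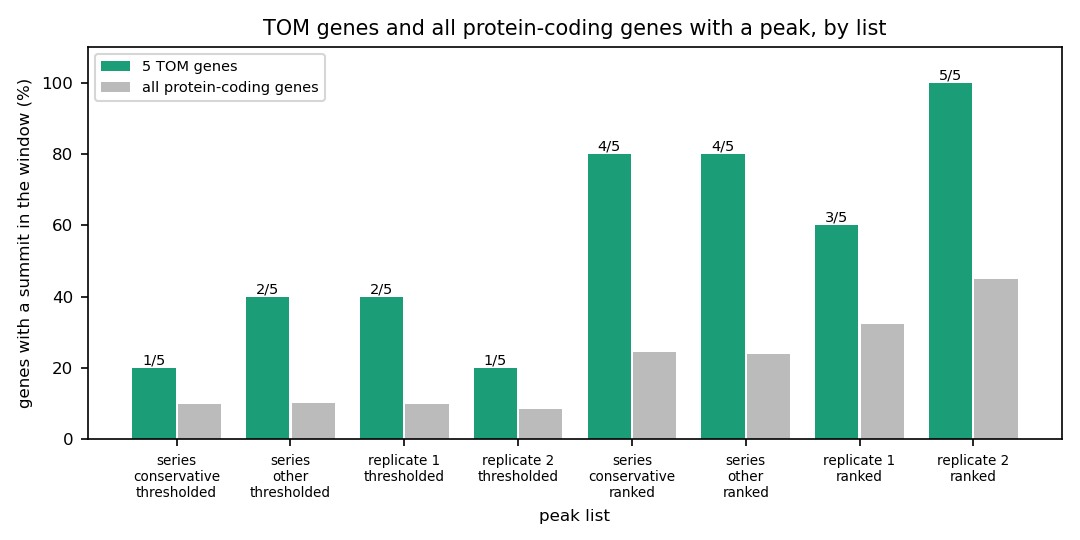
Percentage of the 5 TOM genes (green, with the count) and of all 19973 protein-coding genes (grey) that had a summit in the promoter window, for each peak list. A single gene is 20% of the green bars, which stand at 1 or 2 of 5 in the thresholded lists.

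Genes of the steps before and after the TOM complex, and other outer membrane genes, were counted in the same way. A list of these, called import-pathway genes here, gave 51 symbols, of which 38 matched a protein-coding gene. Of these 38, 19 (50%) had a conservative summit in the window, against 10% of all genes. All 19 also had one in both replicates' thresholded lists, as did 1554 of the 1997 genes with a conservative summit (77.8%). Their median signal was 367.1, against 231.6 over the 1997 bound genes. The list was written with earlier results of these data known and was not tested.

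All 6 matched genes for cytosolic chaperones and co-chaperones, which hold precursors and hand them to the receptors, were bound. Among them were hsp-1 (an Hsp70, signal 1225) and hsp-110 (1097, with its summit also in the window of rpn-3). Others were dnj-13 (710.4, shared in this way with F54D5.9) and dnj-19 (521.0, shared with nhr-47). In replicate 1 hsp-1 had a signal of 821.2 and in replicate 2 one of 384.7.

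Of the genes listed under the presequence translocase of the inner membrane and its motor, 5 of 9 were bound. Membership in this group was set by the list, and not every gene in it need be a subunit. These were hsp-6, the mitochondrial Hsp70 that pulls precursors in (signal 430.7, shared with C37H5.5), the channel gene timm-23 (416.7, shared with F15D3.6), timm-17B.1 (313.2), romo-1 (205.2) and the DnaJ gene dnj-10 (188.0). For timm-23, the replicates gave 252.96 and 166.6. The second TIM17 gene, timm-17B.2, had no peak in any of the 8 lists, as was the case for scpl-4 and dnj-21, and tin-44 had only a ranked one in replicate 2. These 4 were named after their values were seen.

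The small TIM chaperones of the intermembrane space had 3 of 5 genes bound. ddp-1 had the strongest peak of the mitochondrial genes in the list (signal 715.8, rank 108 of 2143, with 462.6 and 265.2 in the replicates), and its summit also lay in the window of ttc-7. tin-9.2 followed at 367.1 (shared with dli-1 and exos-4.1) and tin-9.1 at 276.4. In the sorting and assembly group 1 of 3 was bound, the metaxin gene mtx-1 (276.6), which shares its summit with dnj-12, and gop-3, which encodes the SAM50 homologue, had no peak in any list.

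Among processing peptidases and related proteins, 2 of 5 were bound, mppb-1 (390.1) and ucr-1 (321.0, shared with ddx-15). Of 10 other outer membrane genes, 2 were bound, vdac-1, which encodes the metabolite channel (287.6, shared with R05G6.5), and the mitofusin gene fzo-1 (190.5). The signal of tomm-20 was above those of the bound mitochondrial genes of the pathway list except ddp-1. Of the 19 bound genes, 11 had a summit that also lay in the window of another protein-coding gene, whereas the tomm-20 summit did not. Over the genome, the 1997 bound genes had 1418 promoter summits between them, so shared summits were common there too. The share of all bound genes with a shared summit was not counted, so neither trait can be called particular to these genes.

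**Figure D4:**
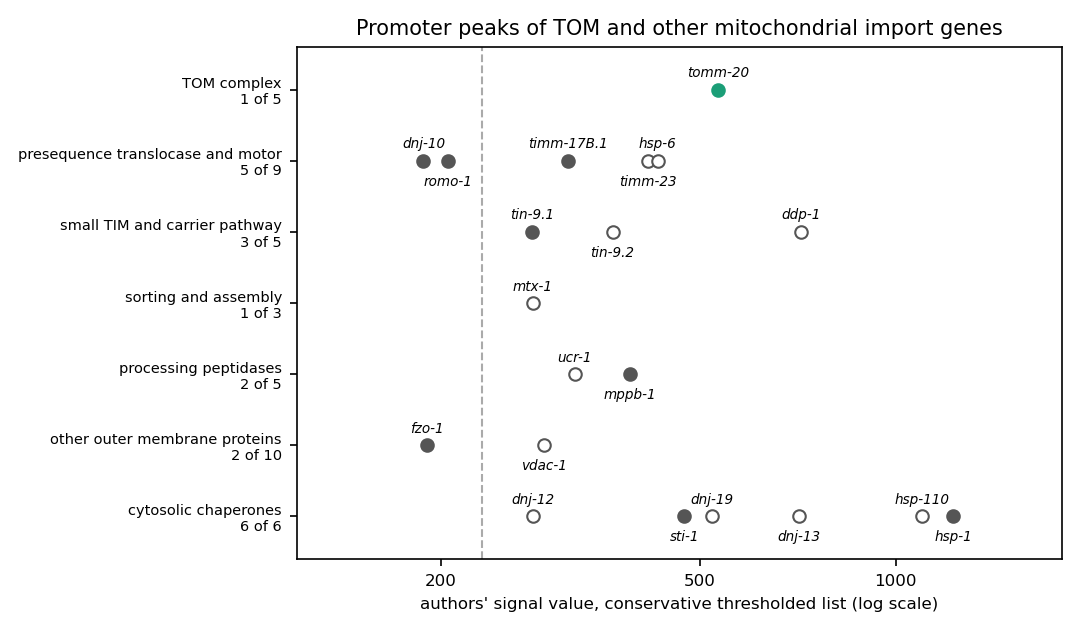
Signal in the conservative thresholded list (log scale) of each bound gene of the TOM complex and of the 6 groups of listed genes. The number bound of the number matched is given. Open circles are summits that also lie in the window of another protein-coding gene, and the dashed line is the median over the 1997 bound genes, 231.6. The 6 chaperone genes run from 276.6 to 1225 and tomm-20 stands at 532.5.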

How the data were processed

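ISW-1 ChIP-seq peak lists on ce11 were used as deposited. The notes that accompany the deposited files list a ranked and a thresholded IDR list for either replicate, and 2 of each made from both replicates. For the aligner and peak caller, names and versions were not given in the sources used here. The signal value of each peak and, in ranked lists, the −log10 of the global IDR are the authors' own, and the scale of the signal is not stated. All thresholded peaks were found in a ranked list at a global IDR of at most 0.00997. A further 16 columns with per-sample values in the series' ranked lists were not used. Lists carry no read counts, so depth is unknown.

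Summits were compared with Ensembl release 115 gene models (WBcel235, the same build) and sequence was read from the RefSeq FASTA of that build, in Python 3.11.15 with pandas 2.3.3. The outermost annotated start stood for each gene, and 1 summit was allowed to count for more than 1 gene. The assignment of summits to gene windows was tested on simulated data. No statistical test was made on the deposited peaks, because there is 1 condition and the members and lists were chosen with earlier results of these data known. Of 51 pathway symbols, 13 matched no gene name and were left out of the counts (such as daf-21, listed among the cytosolic chaperones). Named genes were the members, genes and neighbours sharing their summits, up to 4 bound genes with the highest signal per pathway group, and the 2 genes closest to a member in signal percentile. Others were named after their values were seen. Alternatives were other lists, windows, starts and assignments, overlap and motif windows.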

Additional observations from a re-analysis of the deposited data

How the results depend on the processing

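The count of TOM genes with a promoter summit was 1 in the conservative list and stayed at tomm-20 alone with narrower (500 and 250 bp) or wider (2000 and 1000 bp) windows, any transcript start, nearest starts only, and peaks at or above the median signal. It was 2 in the other thresholded list, and 1 to 2 when either replicate was left out. It was 4 in the ranked list of the conservative set and, in lists added after seeing the data, 4, 3 and 5 in those of the other set, replicate 1 and replicate 2. The change from 1 to 2 is tomm-7 each time. The import-pathway count of 19 of 38 (10% of all genes) was 13 with nearest starts only (7%), 22 with the wider window (12.9%) and 22 in the ranked list of the conservative set (24.5%), where the share of all genes rose more than the count. The percentile of the tomm-20 peak, 89.4, was 78.7 among peaks at or above the median signal, which removes the lower peaks by construction, and ran from 82.6 to 90.3 with a replicate left out. The distance of its summit ran from 260 to 279 bp with a replicate left out. The 1 conservative peak, at tomm-20, overlapped both replicates also with a reciprocal overlap of 50% and with the replicates' ranked lists. It held none of the 4 words (0) within 150 bp of the summit or in the whole peak, and ranked lists were not searched in this way. Depth is unknown, so a missing peak cannot be told apart from too few reads.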

Other observations

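A few of the listed import-pathway genes, named after their values were seen, differed between lists in ways also seen among the TOM genes. tin-13, a small TIM gene, and miro-1, an outer membrane GTPase gene of mitochondrial transport, had summits in all 4 ranked lists and no thresholded one. This combination, also that of tomm-22, was found at 1405 of all 19973 protein-coding genes (7.03%). immp-1, which encodes an inner membrane peptidase, was the reverse of tomm-7 between the replicates. Its peak passed in the other thresholded list (signal 118.2, rank 1739 of 2210) and in replicate 2 (67.7, rank 1110 of 1756), but not in replicate 1 or the conservative list. Strong peaks also lay near TOM genes without counting for them. The fourth strongest peak of the conservative list, at rpl-35 (signal 1977), was 4929 bp upstream of tomm-7.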
